A study of Mus musculus with 6 samples.

Results

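Cell cycle genes were followed in hepatic CD11c+ cells, the liver fraction that holds dendritic cells and CD11c-expressing macrophages, by taking every row of the gene count table whose symbol was on a list of 36 genes. All 36 genes were found, each in 1 row, among the 31426 genes of the table. They comprise 15 genes of the G1/S transition and DNA replication, 19 genes of G2 and mitosis, and 2 inhibitors of cyclin-dependent kinases (CDKs). RNA-seq had been run on 6 libraries. Of these, 3 are labelled Atg5 CD11cKO (numbered 25, 26 and 27) and 3 are labelled WT (numbered 21, 22 and 23). All mice were C57BL/6 males, with an age of 4 to 8 weeks on the labels, and received a high-fat diet (HFD) for 14 weeks. Atg5 CD11cKO mice carried 2 floxed alleles of Atg5, which encodes a protein needed to build autophagosomes, together with a Cre recombinase under the Itgax (CD11c) promoter, and both Atg5 flox and CD11c-Cre were homozygous. The WT controls were floxed littermates. Deletion is thus limited to cells that have used the Itgax promoter, and any other cell in the fraction keeps the gene. Cells were enriched with CD11c MicroBeads and 10 ng of RNA went into each library. No source used here says which mouse or mice gave each library, so the p-values measure the spread between these libraries, which may be technical.

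A cell that enters division first makes D-type cyclins, which bind CDK4 and CDK6 and begin to inactivate the retinoblastoma protein. E2F factors are then released and switch on cyclin E, the MCM helicase and the enzymes of nucleotide supply for S phase. Mitotic genes are switched on later, in G2, when B-type cyclins and CDK1 start mitosis and the Aurora and Polo kinases, motors and checkpoint proteins build and inspect the spindle. The inhibitors p21 (Cdkn1a) and p27 (Cdkn1b) hold cyclin-CDK complexes back. Mature dendritic cells and macrophages mostly do not divide, while some of their tissue-resident populations and precursors do.

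The library labelled WT 23 has to be described before any result, because it stood with the Atg5 CD11cKO libraries. Atg5 was at 21.3, 21.0 and 20.8 CPM (a gene's counts scaled to a library total of 1000000) in Atg5 CD11cKO 25, 26 and 27, against 53.1 CPM in WT 21, 49.4 CPM in WT 22 and 22.3 CPM in the library labelled WT 23. Over all genes, the chi-square of the counts per degree of freedom lay between 6.23 and 7.80 for pairs among the 3 Atg5 CD11cKO libraries and the library labelled WT 23, was 10.6 for WT 21 against WT 22, and lay between 226 and 235 for pairs across these 2 sets. No pair of libraries agreed within sampling noise. Library totals were 31064570 to 34034675 estimated counts. Each comparison is therefore given with all 6 libraries as labelled and without the library labelled WT 23, which leaves 3 Atg5 CD11cKO and 2 WT libraries. A direction drawn from the second comparison rests on the labels of those 5 libraries.

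The cell fraction also differed between the same sets of libraries. Over the whole list of 10 genes of CD11c+ dendritic cells and macrophages, none was at 0. Their summed level was 75290 to 77540 CPM in Atg5 CD11cKO, against 66745 to 67358 CPM in WT 21 and 22. In the library labelled WT 23 it was 74972 CPM. Cd74 was the largest part of this sum, at 33900 to 34900 CPM in Atg5 CD11cKO against 30000 CPM in WT 21 and 22. Itgax was at 464 to 493 CPM in Atg5 CD11cKO against 425 to 440 CPM in WT 21 and 22. The MHC class II genes H2-Ab1, H2-Aa and H2-Eb1 did not reach an adjusted p under 0.05 by edgeR without the library labelled WT 23. Within this list, Lyz2 (6710 to 6810 CPM in Atg5 CD11cKO against 2390 to 2460 CPM in WT 21 and 22), Csf1r (1570 to 1680 CPM in Atg5 CD11cKO against 718 to 763 CPM in WT 21 and 22) and Adgre1 (338 to 370 CPM in Atg5 CD11cKO against 152 to 154 CPM in WT 21 and 22), genes of macrophages and monocytes, were higher in Atg5 CD11cKO without the library labelled WT 23. Flt3, a receptor of dendritic cells and their precursors, was lower (356 to 363 CPM in Atg5 CD11cKO against 493 to 552 CPM in WT 21 and 22), while Zbtb46, a transcription factor of dendritic cells, was higher (137 to 148 CPM in Atg5 CD11cKO against 89.2 to 95.4 CPM in WT 21 and 22). Markers of other cells were present in all libraries. The 19 pancreatic acinar genes summed to 446 to 472 CPM in Atg5 CD11cKO, against 21307 to 21523 CPM in WT 21 and 22 and 438 CPM in the library labelled WT 23. The 20 hepatocyte genes summed to 1180 to 1183 CPM in Atg5 CD11cKO, against 3548 to 3621 CPM in WT 21 and 22 and 1165 CPM in the library labelled WT 23. Trf, the largest of them in Atg5 CD11cKO, was at 677 to 684 CPM there and 693 to 697 CPM in WT 21 and 22. Without the library labelled WT 23, 18 of the 20 were lower in Atg5 CD11cKO. The 10 T cell genes (163 to 173 CPM in Atg5 CD11cKO against 359 to 365 CPM in WT 21 and 22), the 9 NK cell genes (423 to 436 CPM in Atg5 CD11cKO against 1349 to 1387 CPM in WT 21 and 22) and the 9 plasmacytoid dendritic cell genes (814 to 825 CPM in Atg5 CD11cKO against 1988 to 1995 CPM in WT 21 and 22) followed the same split, and so did 8 genes of lipid-associated macrophages in the opposite direction (3840 to 3877 CPM in Atg5 CD11cKO against 622 to 623 CPM in WT 21 and 22). The library labelled WT 23 was at 171, 424, 840 and 3903 CPM for these 4 lists. The 7 Kupffer cell genes summed to 951 to 968 CPM in Atg5 CD11cKO, against 1879 to 1884 CPM in WT 21 and 22 and 941 CPM in the library labelled WT 23. The 10 erythroid genes summed to 57.9 to 68.9 CPM in Atg5 CD11cKO, against 104 to 109 CPM in WT 21 and 22. For these genes the library labelled WT 23 was at 60.0 CPM. The 11 B and plasma cell genes summed to 125 to 130 CPM in Atg5 CD11cKO and 121 to 126 CPM in the 3 WT libraries. This sum holds opposite changes. Of the 9 tested without the library labelled WT 23, Sdc1 and Jchain were higher in Atg5 CD11cKO and Mzb1 was lower. Sdc1 was at 32.4 to 36.1 CPM in Atg5 CD11cKO against 17.2 to 18.9 CPM in WT 21 and 22. Mzb1 was at 6.51 to 8.31 CPM in Atg5 CD11cKO against 23.0 to 26.6 CPM in WT 21 and 22. The 5 genes of neutrophil progenitors, a dividing population, summed to 0.417 to 0.503 CPM in Atg5 CD11cKO and 0.416 to 0.601 CPM in WT. No gene of these lists was at 0 in every library, while Ctsg of the neutrophil progenitor list was at 0 in all 3 WT libraries. The part of any of these cells in the values below was not tested. In bulk RNA, fewer cells of a type and less RNA per cell cannot be told apart.

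All 36 cell cycle genes were expressed, with 98 estimated counts (Ccne2 in WT 21) to 9213 (Ccnd3 in Atg5 CD11cKO 26) per library. As RPKM, the CPM divided by the exon length in kilobases, which allows genes to be compared, the mean over the 6 libraries ran from 1.13 RPKM for Cenpf, a kinetochore protein, to 58.3 RPKM for Cdkn1a. The median was 10.1 RPKM for the 36 genes and 2.96 RPKM for all genes tested. The 15 G1/S genes had a median of 19.0 RPKM and were led by Pcna, the sliding clamp of DNA polymerase, at 35.2 ± 2.43 RPKM (SD, n = 6). A pseudogene counted apart, Pcna-ps2, had 761 to 838 estimated counts in Atg5 CD11cKO and 637 to 849 in WT, beside 2509 to 2873 in Atg5 CD11cKO and 2407 to 3132 in WT for Pcna, so the level of Pcna is uncertain as far as reads fit both. Mcm6, at 32.5 ± 1.27 RPKM (SD, n = 6), and Mcm3, at 29.5 ± 1.12 RPKM (SD, n = 6), stood next within that class, and the gap between these 2 is larger than their spread. The 19 G2/M genes had a median of 8.29 RPKM, with Ccnb2 (cyclin B2) highest at 29.2 ± 2.47 RPKM (SD, n = 6), a level that did not differ from that of Mcm3 beyond the spread. Mki67, the gene of the Ki-67 antigen of dividing cells, was at 5.23 ± 0.553 RPKM (SD, n = 6), and Top2a, a topoisomerase that disentangles chromosomes, at 8.83 ± 0.868 RPKM (SD, n = 6). Cyclin E was low, with 2.65 ± 0.321 RPKM for Ccne1 and 1.41 ± 0.381 RPKM for Ccne2 (SD, n = 6).

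**Figure D1:**
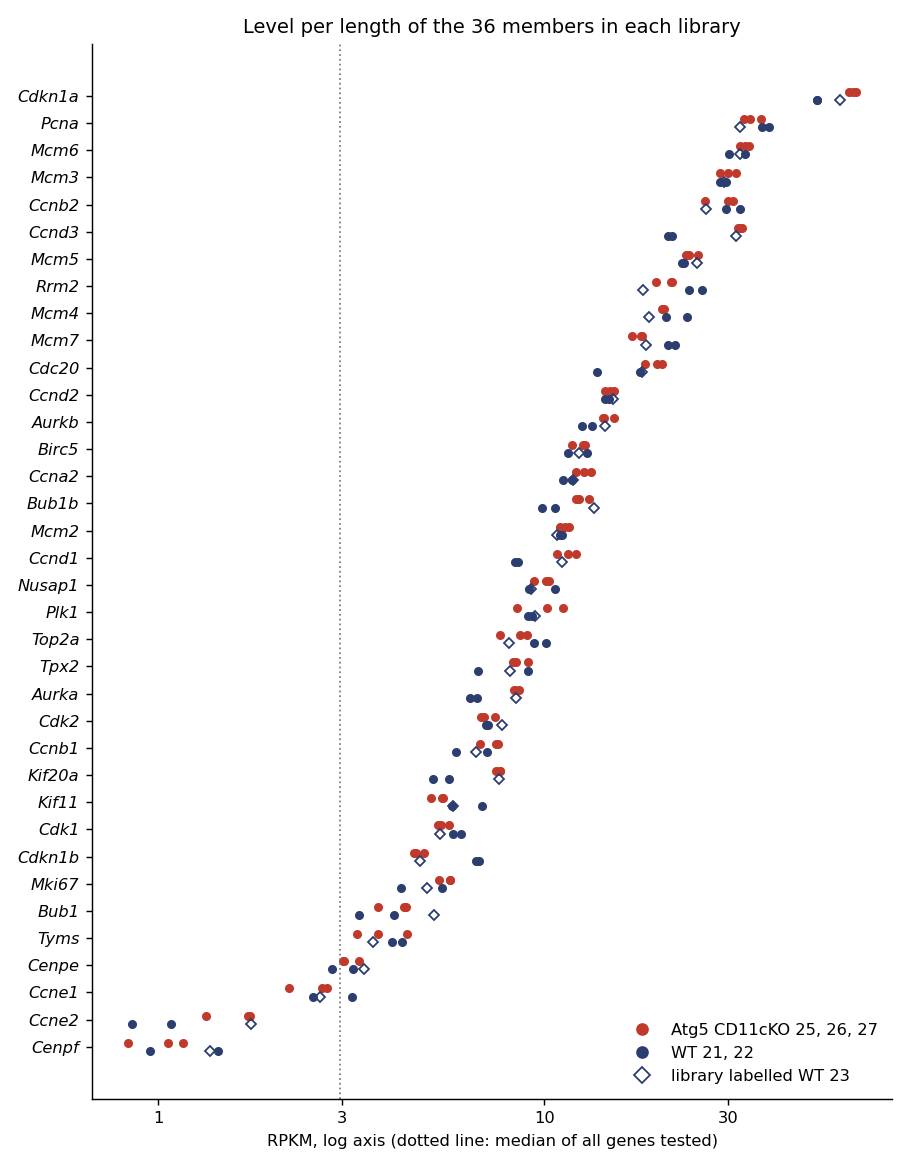
Level of each of the 36 cell cycle genes in each library, in RPKM on a log axis, with genes ordered by their mean. Red points are Atg5 CD11cKO 25, 26 and 27, filled blue points are WT 21 and 22, and the open diamond is the library labelled WT 23. Cdkn1a leads and Cenpf is lowest, and 33 of the 36 means lie above the dotted line at 2.96 RPKM, the median of all genes tested.

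The libraries were made to show the effect of Atg5 loss on the transcripts of hepatic CD11c+ cells under HFD, and the cell cycle genes are compared here for that effect. With all 6 libraries as labelled, none of the 36 genes reached an adjusted p under 0.05 (edgeR, quasi-likelihood, adjusted by Benjamini-Hochberg over all genes), and neither did any of the 17499 genes tested (0.0%). Among the 36 genes the smallest adjusted p by edgeR was 0.34, log2 fold changes ran between -0.38 and 0.38, and 5 genes had an unadjusted p under 0.05 (Ccnd1, Ccnd3, Mcm7, Cdkn1a and Cdkn1b), beside 14.4% of all genes. DESeq2 also called none of the 36, beside 2.31% of all genes with an adjusted p (44 higher and 372 lower), and limma-voom called no gene at all. The CPM values of Atg5 CD11cKO and WT libraries did not overlap for 6 genes (16.7%), namely Ccnd3, Mcm7, Ccna2, Cdc20, Kif11 and Cdkn1a, beside 18.0% of all genes.

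Without the library labelled WT 23, 9 of the 36 genes passed (25.0%), where 31.0% of the 18241 genes tested did. Of these, 6 rose in Atg5 CD11cKO cells (Ccnd3, Ccnd1, Cdkn1a, Kif20a, Aurka and Bub1b), beside 15.9% of all genes, and 3 fell (Cdkn1b, Mcm7 and Rrm2), beside 15.1%. DESeq2 called 7 higher and 4 lower, beside 16.9% and 15.3% of all genes, and limma-voom called 6 higher and 4 lower, beside 15.8% each way. For 19 of the 36 genes (52.8%), Atg5 CD11cKO and WT 21 and 22 did not overlap, against 54.9% of all genes. The changes were small. The genes set beside them were not matched for level, with a median of 2.96 RPKM for all genes tested and 10.1 RPKM for the 36. The median absolute log2 fold change was 0.15 for the 36 genes and 0.35 for all genes, 22 of the 36 (61.1%) had a log2 fold change under 0.2 in size against 31.9% of all genes, and none reached a 2-fold change, which 16.7% of all genes did. In 16 of the 36 genes WT 21 and WT 22 differed from each other by more than the 2 genotypes did. The library labelled WT 23 lay nearer to the mean of the Atg5 CD11cKO libraries than to that of WT 21 and 22 in 24 of the 36 genes, including all 9 that passed. That library stood with Atg5 CD11cKO over all genes too, by the chi-square given above. Neither this count nor that of the gap between WT 21 and WT 22 was taken over all genes, so neither is a trait of the 36.

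**Figure D2:**
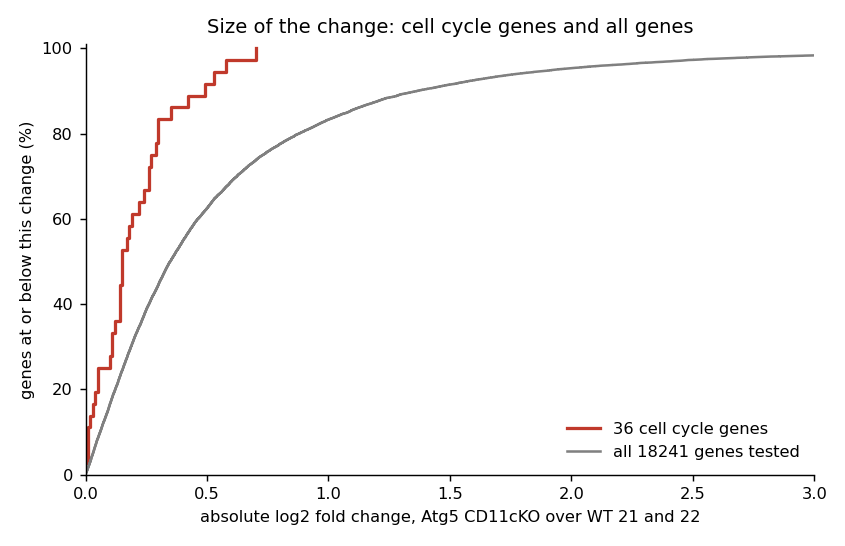
Cumulative share of genes, in %, at or below each absolute log2 fold change between Atg5 CD11cKO and WT 21 and 22, for the 36 cell cycle genes (red) and all 18241 genes tested (grey). The red line reaches 100% at 0.70, while 16.7% of all genes lie at 1 or more. The genes of the grey line were not matched for level to the 36.

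**Figure D3:**
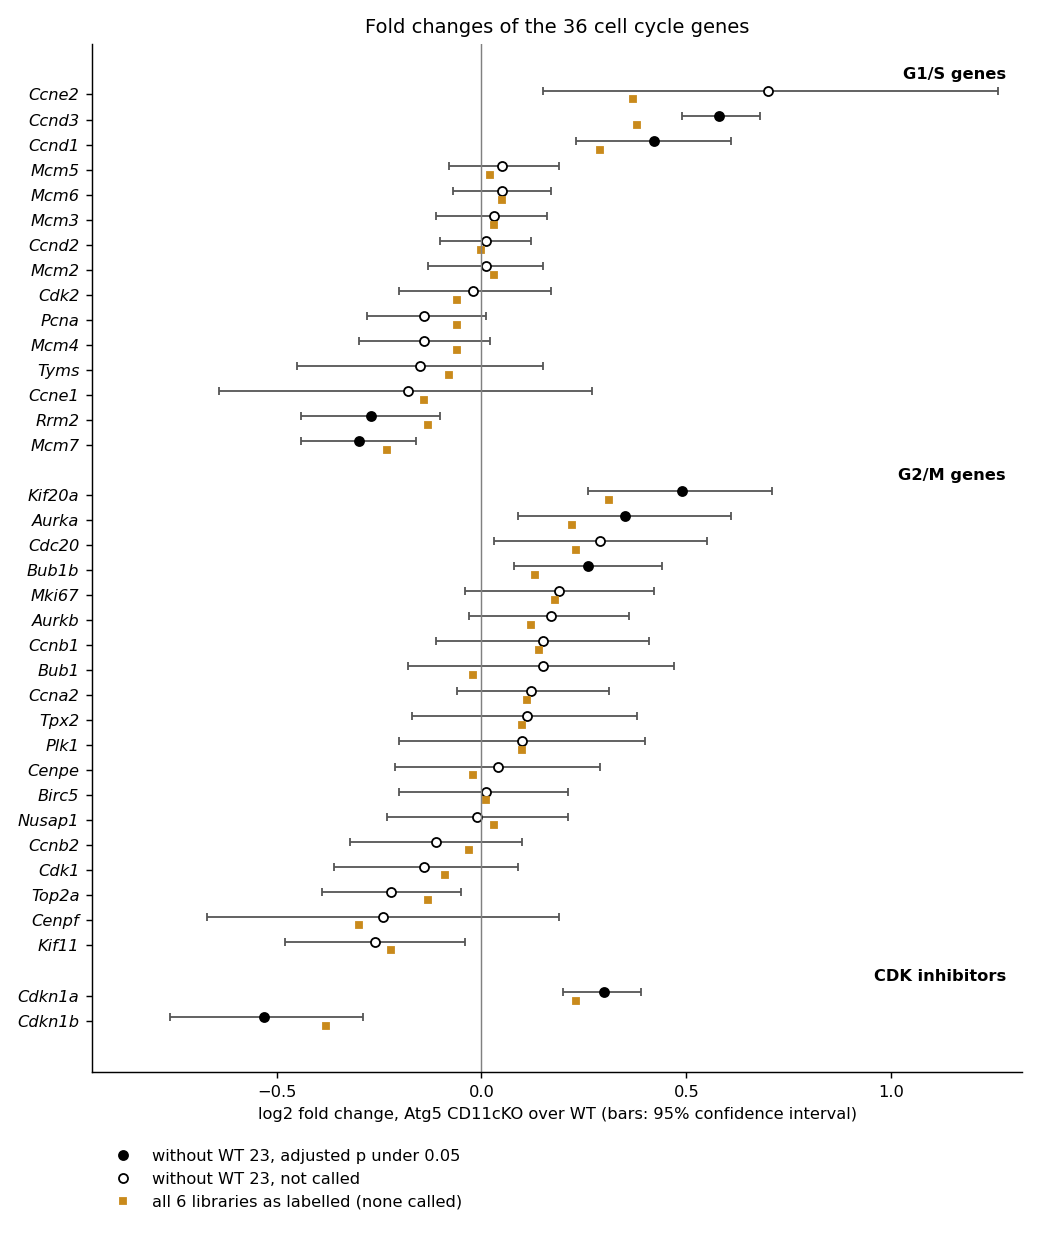
Log2 fold change of Atg5 CD11cKO over WT for each of the 36 genes, by class. Circles with 95% confidence intervals are the comparison without the library labelled WT 23 (filled where adjusted p by edgeR was under 0.05) and squares are the comparison of all 6 libraries as labelled. The 9 filled circles lie between -0.53 (Cdkn1b) and 0.58 (Ccnd3).

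Promoter sequences are shown for Ccnd3, the G1/S gene with the smallest adjusted p, for both CDK inhibitors and for Bub1b, the G2/M gene with the smallest adjusted p after Kif20a, which had no entry in the promoter table. They are shown because E2F sites, CCAAT boxes and the cell cycle homology region (CHR) are the promoter elements best known from G1/S and G2/M genes. Each is the 250 bases before a RefSeq start site, 5′ to 3′, from GRCm38.p6. Capitals mark a CCAAT box on either strand, and the 250 bases shown held neither of the other 2 motifs in any of the 4 genes. Ccnd3 (chr17:47504801-47505050, plus strand) and Cdkn1a (chr17:29090729-29090978, plus strand) each have another start site, not shown. It lies inside the gene, 88416 bases from the annotated 5′ end for Ccnd3 and 2793 bases for Cdkn1a. The windows shown are those nearest to that end, and which start site these cells use was not tested. Bub1b lies at chr2:118597961-118598210 (plus strand) and Cdkn1b at chr6:134920151-134920400 (plus strand).
Ccnd3: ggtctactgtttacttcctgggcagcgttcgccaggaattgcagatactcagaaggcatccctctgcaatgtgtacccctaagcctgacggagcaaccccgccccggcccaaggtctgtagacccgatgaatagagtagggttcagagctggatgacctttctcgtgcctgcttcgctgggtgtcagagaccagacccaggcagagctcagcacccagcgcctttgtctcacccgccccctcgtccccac
Bub1b: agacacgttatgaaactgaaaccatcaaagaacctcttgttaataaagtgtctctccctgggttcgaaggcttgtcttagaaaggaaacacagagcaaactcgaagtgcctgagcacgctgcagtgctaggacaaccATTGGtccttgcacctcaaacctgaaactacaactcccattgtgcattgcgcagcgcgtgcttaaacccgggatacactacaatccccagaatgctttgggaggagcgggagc
Cdkn1a: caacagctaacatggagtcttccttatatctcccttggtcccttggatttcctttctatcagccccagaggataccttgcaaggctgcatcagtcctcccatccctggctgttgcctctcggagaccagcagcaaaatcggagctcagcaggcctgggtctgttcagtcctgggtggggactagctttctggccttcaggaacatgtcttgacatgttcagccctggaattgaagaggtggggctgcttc
Cdkn1b: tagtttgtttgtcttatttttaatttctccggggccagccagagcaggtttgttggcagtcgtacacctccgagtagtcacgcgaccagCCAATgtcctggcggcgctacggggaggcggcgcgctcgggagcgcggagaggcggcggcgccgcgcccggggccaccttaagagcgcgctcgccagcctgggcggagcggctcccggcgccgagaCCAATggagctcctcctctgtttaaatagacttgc

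In the bases shown, Ccnd3 and Cdkn1a held no CCAAT box, Bub1b held 1 and Cdkn1b held 2. Promoters of 28 of the 36 genes were in the table (none for Kif20a, Ccnd1, Aurkb, Ccna2, Ccnd2, Ccne2, Mcm4 and Tpx2). Over the whole window of 300 bases, which runs 50 bases past the start, the CHR (TTTGAA, either strand) was found in 10 of 15 G2/M genes (66.7%) and in 1 of 11 G1/S genes (9.09%), beside 17.9% of all 32851 windows. An E2F motif (TTTGGCGC, TTTCCCGC, TTTCGCGC or TTTGCCGC, either strand) was found in 5 of 11 G1/S genes (45.5%) and in 1 of 15 G2/M genes (6.67%), beside 2.26% of all windows. The CCAAT box (either strand) was found in 9 of 11 G1/S genes and 13 of 15 G2/M genes, beside 37.4% of all windows. A gene with several start sites was counted where any of its windows held the motif. Ccnd3 is among the 9 through its other start site, which holds 1 CCAAT box. Over the 300 bases Bub1b held 1 CHR and Cdkn1b held 3 CCAAT boxes, so the bases shown above do not hold all of them. Counted by window, as all windows were, the G1/S shares were 7.69% (CHR), 38.5% (E2F) and 76.9% (CCAAT box) of 13 windows. The G2/M shares stayed the same. These counts describe letters in a window and not the binding of a factor.

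Of the 3 D-type cyclins, the CDK4 and CDK6 partners that receive growth signals, Ccnd3 and Ccnd1 rose without the library labelled WT 23 and Ccnd2 did not pass. Ccnd3 (cyclin D3, chromosome 17 of mm10 from 47505051 to 47599692) was at 285, 282 and 280 CPM in Atg5 CD11cKO 25, 26 and 27, against 189 CPM in WT 21, 184 CPM in WT 22 and 275 CPM in the library labelled WT 23. All 3 Atg5 CD11cKO libraries were above all 3 WT libraries, the closest being the library labelled WT 23. Without that library the log2 fold change was 0.58 (SE 0.04, 95% confidence interval 0.49 to 0.68, adjusted p = 7.8e-07 by edgeR), a 1.50-fold level, and with all 6 libraries it was 0.38 (SE 0.15, adjusted p = 0.34). A pseudogene counted apart, Ccnd3-ps, had 207, 233 and 268 estimated counts in Atg5 CD11cKO 25, 26 and 27. It had 115, 200 and 211 in WT 21, WT 22 and the library labelled WT 23. How reads shared by Ccnd3 and Ccnd3-ps were divided is not known. Ccnd3 also shares 4.1% of its exon bases with Bysl on the opposite strand. Without the library labelled WT 23, Bysl had a log2 fold change of 0.43 (adjusted p = 0.03 by edgeR). Ccnd1 (cyclin D1, chromosome 7 from 144929931 to 144939926) was at 54.2, 57.1 and 50.9 CPM in Atg5 CD11cKO 25, 26 and 27, against 40.4 CPM in WT 21, 39.6 CPM in WT 22 and 52.1 CPM in the library labelled WT 23. Its Atg5 CD11cKO values lay above WT 21 and 22 and on both sides of the library labelled WT 23. The log2 fold change was 0.42 without that library (SE 0.09, adjusted p = 0.003 by edgeR) and 0.29 with it (SE 0.12, adjusted p = 0.35). Ccnd1 shares 23.4% of its exon bases with LTO1 on the opposite strand, whose reads cannot be told apart from its own where the use of strand is not known. LTO1 was at 13.7 to 18.4 CPM in Atg5 CD11cKO and 12.7 to 15.5 CPM in the 3 WT libraries, with a log2 fold change of 0.14 (adjusted p = 0.57 by edgeR) without the library labelled WT 23. Ccnd2 (cyclin D2, chromosome 6 from 127125162 to 127152194) was at 139, 143 and 136 CPM in Atg5 CD11cKO 25, 26 and 27, against 135 CPM in WT 21, 138 CPM in WT 22 and 142 CPM in the library labelled WT 23. The groups overlapped, and its log2 fold change of 0.01 without that library had a 95% confidence interval of -0.10 to 0.12 (adjusted p = 0.89 by edgeR). Per length, Ccnd3 was thus at 2.11 to 2.21 times the RPKM of Ccnd2 in Atg5 CD11cKO, against 1.49 times in WT 21, 1.43 times in WT 22 and 2.08 times in the library labelled WT 23.

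The CDK inhibitors moved in opposite directions without the library labelled WT 23. Cdkn1a (p21, a target of p53, chromosome 17 from 29090976 to 29100728) was at 219, 229 and 225 CPM in Atg5 CD11cKO 25, 26 and 27, against 181 CPM in both WT 21 and WT 22 and 208 CPM in the library labelled WT 23. Atg5 CD11cKO was higher than every WT library, again with the library labelled WT 23 between. Its log2 fold change was 0.30 without that library (SE 0.04, adjusted p = 0.00031 by edgeR) and 0.23 with it (SE 0.08, adjusted p = 0.34). Cdkn1a shares 7.7% of its exon bases with AC167363.2 on the opposite strand. Cdkn1b (p27, chromosome 6 from 134920401 to 134925514) was at 22.2, 21.2 and 20.9 CPM in Atg5 CD11cKO 25, 26 and 27, against 30.8 CPM in WT 21, 30.2 CPM in WT 22 and 21.7 CPM in the library labelled WT 23. WT 21 and 22 lay above the Atg5 CD11cKO range, and the library labelled WT 23 inside it. Without that library its log2 fold change was -0.53 (SE 0.11, adjusted p = 0.0028 by edgeR) and -0.38 with it (SE 0.16, adjusted p = 0.35). The ratio of the Cdkn1a level to the Cdkn1b level, in RPKM, was 12.7 to 13.9 in Atg5 CD11cKO, against 7.51 in WT 21, 7.66 in WT 22 and 12.2 in the library labelled WT 23.

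**Figure D4:**
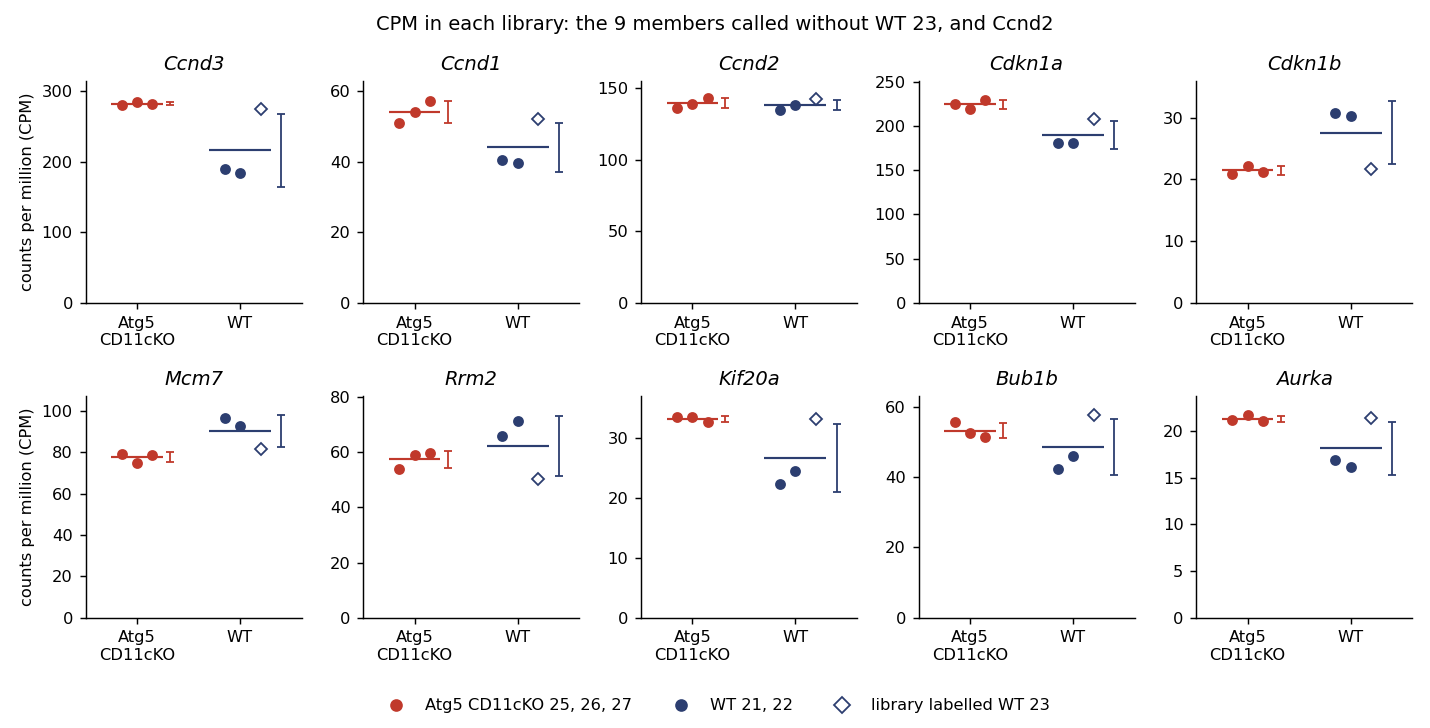
CPM in each library for the 9 genes that passed without the library labelled WT 23, and for Ccnd2. Red points are Atg5 CD11cKO 25, 26 and 27, filled blue points WT 21 and 22, the open diamond the library labelled WT 23, and lines and bars the mean and SD of 3 Atg5 CD11cKO and 3 WT libraries. In each of the 9 panels of genes that passed, the diamond lies nearer to the red points than the filled blue points do.

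The 15 G1/S genes together took 1281, 1305 and 1276 CPM in Atg5 CD11cKO 25, 26 and 27, against 1198 CPM in WT 21, 1207 CPM in WT 22 and 1263 CPM in the library labelled WT 23, a ratio of the means of 1.07 without that library and 1.05 with it. With Ccnd3 left out, a choice made after its values were seen, the other 14 genes took 996, 1023 and 996 CPM in Atg5 CD11cKO 25, 26 and 27, against 1009 CPM in WT 21, 1023 CPM in WT 22 and 988 CPM in the library labelled WT 23. The groups of these 14 overlapped, and the ratio of their means was 0.989 without that library and 0.999 with it. The median log2 fold change of the class was 0.01 without the library labelled WT 23 and 0.00 with it, beside -0.01 for all genes in both comparisons. Of the MCM helicase, the ring of 6 related proteins that opens DNA at replication origins, only Mcm7 passed. Mcm7 (chromosome 5 from 138164583 to 138172423) was at 74.8, 78.9 and 79.3 CPM in Atg5 CD11cKO 25, 26 and 27, against 96.7 CPM in WT 21, 92.6 CPM in WT 22 and 81.5 CPM in the library labelled WT 23. All Atg5 CD11cKO libraries were below all WT libraries, with the library labelled WT 23 closest to them. For Mcm7 the log2 fold change was -0.30 without that library (SE 0.06, adjusted p = 0.0039 by edgeR) and -0.23 with it (SE 0.10, adjusted p = 0.35). Its partners Mcm2, Mcm3, Mcm4, Mcm5 and Mcm6 had log2 fold changes of -0.14 to 0.05 and did not pass. Their 95% confidence intervals stayed within -0.30 and 0.19. Leaving out WT 22 as well, which keeps WT 21 as the only WT library, gave a log2 fold change of -0.23 for Mcm4. Mcm7 shares 7.3% of its exon bases with Ap4m1 on the opposite strand, and Ap4m1 was at 7.17 to 9.19 CPM in Atg5 CD11cKO and 6.93 to 9.20 CPM in WT.

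Rrm2, the small subunit of ribonucleotide reductase, which makes the deoxynucleotides for S phase, was the other G1/S gene to fall. Rrm2 (chromosome 12 from 24708241 to 24714147) was at 59.0, 59.6 and 54.0 CPM in Atg5 CD11cKO 25, 26 and 27, against 65.9 CPM in WT 21, 71.2 CPM in WT 22 and 50.2 CPM in the library labelled WT 23. The lowest value of the 6 was that of the library labelled WT 23. The log2 fold change was -0.27 without that library (SE 0.08, adjusted p = 0.022 by edgeR) and -0.13 with it (SE 0.14, adjusted p = 0.65). The call was lost without Atg5 CD11cKO 27. Over the 14 alternatives the log2 fold change of Rrm2 ran over -0.31 to -0.21. Pcna and Tyms, which makes thymidylate, had log2 fold changes of -0.14 and -0.15 and did not pass (adjusted p = 0.15 and 0.46 by edgeR). Ccne2 had the largest log2 fold change of the 36 without the library labelled WT 23, 0.70, but with an SE of 0.25 it did not pass (adjusted p = 0.056 by edgeR, 95% confidence interval 0.15 to 1.26), while with DESeq2 it did (adjusted p = 0.049). It was at 4.64 to 6.06 CPM in Atg5 CD11cKO, against 2.99 CPM in WT 21, 3.77 CPM in WT 22 and 6.07 CPM in the library labelled WT 23, and shares 17.4% of its exon bases with Ints8 on the opposite strand, which had a log2 fold change of 0.39 (adjusted p = 0.006 by edgeR). Ccne1 (-0.18) and Cdk2 (-0.02), the kinase that cyclin E binds, did not pass (adjusted p = 0.55 and 0.91 by edgeR).

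The G2/M genes, summed over all 19, took 717, 705 and 733 CPM in Atg5 CD11cKO 25, 26 and 27, against 707 CPM in WT 21, 665 CPM in WT 22 and 709 CPM in the library labelled WT 23. The groups overlapped, and the ratio of the means was 1.05 without the library labelled WT 23 and 1.04 with it. The median log2 fold change of the class was 0.11 without that library and 0.10 with it, and it rested on WT 22, since leaving WT 22 out gave 0.018 without the library labelled WT 23 and -0.005 with it. Of the 19 genes, 3 rose (15.8%), none fell and 16 did not pass without the library labelled WT 23, where 31.0% of all genes passed.

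**Figure D5:**
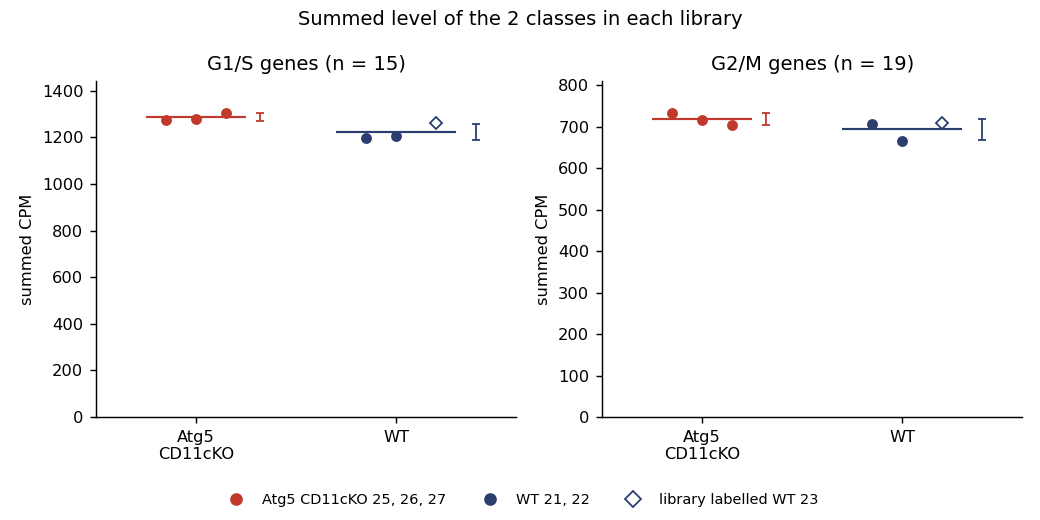
Summed CPM of the 15 G1/S genes (left) and the 19 G2/M genes (right) in each library. Red points are Atg5 CD11cKO 25, 26 and 27, filled blue points WT 21 and 22, the open diamond the library labelled WT 23, and lines and bars the mean and SD of 3 Atg5 CD11cKO and 3 WT libraries. The G1/S sums lie between 1198 and 1305 CPM and the G2/M sums between 665 and 733 CPM.

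Kif20a, a kinesin of the central spindle that is needed for cytokinesis, changed most among the G2/M genes that passed. It was at 33.4, 32.6 and 33.4 CPM in Atg5 CD11cKO 25, 26 and 27, against 22.3 CPM in WT 21, 24.5 CPM in WT 22 and 33.1 CPM in the library labelled WT 23. WT 21 and 22 lay below the Atg5 CD11cKO range and the library labelled WT 23 within it. The log2 fold change was 0.49 without that library (SE 0.10, adjusted p = 0.0037 by edgeR) and 0.31 with it (SE 0.15, adjusted p = 0.36). Kif20a shares 29.3% of its exon bases with Cdc23, a subunit of the anaphase-promoting complex on the opposite strand, and the reads of the 2 genes cannot be told apart where strand was not used. Cdc23 itself was at 48.9, 49.1 and 55.8 CPM in Atg5 CD11cKO 25, 26 and 27, against 41.4 CPM in WT 21, 38.4 CPM in WT 22 and 51.4 CPM in the library labelled WT 23, with a log2 fold change of 0.35 without that library (adjusted p = 0.015 by edgeR). The part of these shared bases in the value of Kif20a was not tested.

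Bub1b (BubR1, a spindle checkpoint protein, chromosome 2 from 118598211 to 118641592) was at 52.5, 51.5 and 55.8 CPM in Atg5 CD11cKO 25, 26 and 27, against 42.2 CPM in WT 21, 45.9 CPM in WT 22 and 57.6 CPM in the library labelled WT 23. The highest of all 6 was the library labelled WT 23. The log2 fold change was 0.26 without that library (SE 0.08, adjusted p = 0.034 by edgeR) and 0.13 with it (SE 0.12, adjusted p = 0.59). The call was lost without any 1 of the Atg5 CD11cKO libraries. Aurka (Aurora kinase A, which acts at centrosomes and spindle poles, chromosome 2 from 172356190 to 172370536) was at 21.7, 21.1 and 21.2 CPM in Atg5 CD11cKO 25, 26 and 27, against 16.9 CPM in WT 21, 16.2 CPM in WT 22 and 21.4 CPM in the library labelled WT 23. Both WT 21 and WT 22 lay below the Atg5 CD11cKO range, which held the library labelled WT 23. Its log2 fold change was 0.35 without that library (SE 0.12, adjusted p = 0.046 by edgeR) and 0.22 with it (SE 0.13, adjusted p = 0.42). Its call stood just inside the threshold. It was lost with upper quartile factors, without a filter, on the normalized signal and on the omission of any 1 Atg5 CD11cKO library.

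The other G2/M genes did not pass without the library labelled WT 23, though Kif11 and Top2a did under some alternatives. Leaving out WT 21 or WT 22 as well keeps only the other as WT, so those fits are given by log2 fold change alone. The engine of mitotic entry, Ccna2, Ccnb1, Ccnb2 and Cdk1, had log2 fold changes of -0.14 to 0.15, with 95% confidence intervals within -0.36 and 0.41. Ccna2 shares 12.5% of its exon bases with Exosc9 on the opposite strand. A pseudogene counted apart, Ccnb1-ps, had 71.9 to 157 estimated counts in Atg5 CD11cKO and 93.4 to 122 in WT. Ccnb1 had 938 to 1014 in Atg5 CD11cKO and 847 to 981 in WT. Aurkb and Birc5, of the chromosomal passenger complex, and Plk1, the Polo kinase, had 0.01 to 0.17. Cdc20, which activates the anaphase-promoting complex, had 0.29 (adjusted p = 0.090 by edgeR), and 0.48 without WT 22. Bub1, a checkpoint kinase, had 0.15 (adjusted p = 0.50 by edgeR). Among the kinetochore and spindle genes, Cenpe, Cenpf, Kif11, Nusap1 and Tpx2 ran between -0.26 and 0.11, with Kif11, the motor that pushes spindle poles apart, lowest (adjusted p = 0.068 by edgeR). Kif11 passed with a filter of 1 CPM (-0.27, adjusted p = 0.049 by edgeR) and had -0.39 without WT 22. Tpx2 had 0.35 without WT 21 and -0.10 without WT 22. The 2 genes most used as proliferation markers differed in sign. Mki67 was at 53.8, 57.3 and 57.5 CPM in Atg5 CD11cKO 25, 26 and 27, against 54.6 CPM in WT 21, 42.8 CPM in WT 22 and 50.0 CPM in the library labelled WT 23, so that the groups overlapped (log2 fold change 0.19, adjusted p = 0.20 by edgeR). Its value depended on which WT library was kept, and without WT 21 the log2 fold change was 0.39. Top2a was at 78.2, 69.3 and 81.2 CPM in Atg5 CD11cKO 25, 26 and 27, against 84.7 CPM in WT 21, 90.9 CPM in WT 22 and 73.1 CPM in the library labelled WT 23, with a log2 fold change of -0.22 just outside the threshold (adjusted p = 0.053 by edgeR), where Aurka, at 0.046, was just inside it. Top2a was called lower under 6 of 14 alternatives, DESeq2 (adjusted p = 0.034) and limma-voom (adjusted p = 0.046) among them.

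The other genes of the cell cycle, from lists that do not include the 36, were read in the same comparison without the library labelled WT 23, and none of them passed by edgeR with all 6 libraries as labelled. Of 48 other S phase and replication genes, 2 rose and 9 fell (22.9% called, beside 31.0% of all genes), with a median log2 fold change of -0.07, or -0.026 without WT 22. Pole, the catalytic subunit of DNA polymerase epsilon, was at 7.50 to 7.93 CPM in Atg5 CD11cKO, against 15.9 CPM in WT 21, 17.1 CPM in WT 22 and 10.7 CPM in the library labelled WT 23 (log2 fold change -1.10, SE 0.15, adjusted p = 0.00018 by edgeR). Dtl, an adaptor of a ubiquitin ligase that acts on replicating chromatin (-0.66), and Rpa2, a single-strand DNA binding protein (-0.58), also fell, and Uhrf1, which brings DNA methylation to replicated DNA, rose (0.36). Of 65 other G2 and mitosis genes, 3 rose and 9 fell (18.5% called, beside 31.0% of all genes), with a median of 0.03 that turned to -0.019 without WT 21 and to -0.007 without Atg5 CD11cKO 26. Gas2l3, a cytoskeletal linker of the midbody, rose to 18.3 to 20.2 CPM in Atg5 CD11cKO, against 6.73 CPM in WT 21, 8.41 CPM in WT 22 and 19.4 CPM in the library labelled WT 23 (log2 fold change 1.31, SE 0.16, adjusted p = 6.9e-05 by edgeR). Kif23, the other kinesin of the central spindle (-0.50), and Hmgb2, a chromatin protein (-0.38), fell, while Tuba1b, an alpha-tubulin whose reads may be shared with near-identical family members, rose by 0.21 on the log2 scale.

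The counts for upstream regulators are to be read beside the 31.0% of all genes that passed. Of 21 tested transcription factors and pocket proteins of the cell cycle, 5 rose and 2 fell (33.3% called), with a median of 0.10, or 0.044 without Atg5 CD11cKO 27, and those with the smallest adjusted p were Myc (log2 fold change 0.35), E2f2 (0.54), E2f6 (0.67) and E2f1 (0.35), which all rose. Of 13 other CDKs and their regulators, 3 rose and 1 fell (30.8% called), with a median of 0.03 that reached 0.192 without WT 22. Skp2, the ubiquitin ligase subunit that directs p27 protein to degradation, was at 10.5, 9.83 and 9.83 CPM in Atg5 CD11cKO 25, 26 and 27, against 4.83 CPM in WT 21, 3.01 CPM in WT 22 and 12.2 CPM in the library labelled WT 23 (log2 fold change 1.34, SE 0.23, adjusted p = 0.0011 by edgeR). Ccng1 (0.37) and Ccng2 (0.32), cyclins tied to cell cycle arrest, rose and Pkmyt1, a kinase that inhibits CDK1, fell (-0.43). Of 4 other CDK inhibitors tested, none rose and 1 fell (25.0% called), Cdkn2d (p19, log2 fold change -0.36, adjusted p = 0.004 by edgeR), while Cdkn2c had -0.05, Cdkn1c 0.28 and Cdkn2b 0.93 and none of these 3 passed. Of 19 tested p53 target genes, 6 rose and 4 fell (52.6% called), with a median of 0.13, which was 0.219 without WT 21 and 0.069 without WT 22. Plk2 (1.22), Mdm2 (0.53), the ubiquitin ligase of p53, and Pmaip1 (0.35), a death-promoting protein of the BCL2 family, rose, and Trp53inp1 (-1.03) fell. Of 11 genes linked to quiescence or to restraint of growth, 2 rose (Klf2, 0.60, and Klf4, 0.42) and 4 fell, among them Pik3ip1, an inhibitor of PI3 kinase, at -1.85, and Txnip at -0.46, with 54.5% called and a median of -0.11, or -0.024 without WT 22. In all of the genes named in these lists except Cdkn2c, the library labelled WT 23 lay nearer to the Atg5 CD11cKO mean than to that of WT 21 and 22. The named genes were picked by adjusted p, and the share over all genes was not counted.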

How the data were processed

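RNA-seq values of 6 libraries were used. The authors aligned reads to mm10, and the submitters' notes name bcl2fastq 2.17.1.14, STAR 2.5.3a and Partek. The deposited gene table gives estimated counts, 32.9% of them whole. How reads were assigned to genes, with which annotation and whether by strand, was not given in the sources used here. As deposited, the normalized signal is the count plus 1, times a factor for each library, and served as an alternative.

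Counts were rounded, filtered with filterByExpr, scaled by TMM and compared with edgeR 4.0.16 in R 4.3.3 (quasi-likelihood, Benjamini-Hochberg adjustment, 0.05). The procedure was tested on simulated data only for changes larger than any of the 36 genes showed. Alternatives were DESeq2 1.42.0, limma 3.58.1 on voom values and on the normalized signal, other scalings and filters, and the omission of each library. CPM used library totals, and RPKM the merged exons of GENCODE vM21. All 36 genes were named, with values per library for those that passed and for D-type cyclins and CDK inhibitors, and up to 4 genes per other list by adjusted p. Values per library of Mki67, Top2a, Ccne2 and of genes that overlap a member were added after they were seen. The members, lists and tests were chosen with earlier results of these data known. Promoters came from RefSeq, and windows that overlapped an annotated UTR (Mcm7, Aurka) were not printed. Precision is limited by 3 or 2 libraries a group.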

Additional observations from a re-analysis of the deposited data

How the results depend on the processing

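Without the library labelled WT 23, Ccnd3, Ccnd1, Cdkn1a, Kif20a, Cdkn1b and Mcm7 kept their call under all 14 alternatives with a fit. A 2-fold change with an unadjusted p under 0.05 left 0 genes higher and 0 lower, and a filter of 1 CPM gave 5 lower. With all 6 libraries, leaving out 1 gave 0 to 6 genes higher and 0 to 3 lower, the highest only without the library labelled WT 23. The log2 ratio of the summed G1/S level was 0.099 and became 0.079 with TMM scaling and 0.054 as a mean of log2 CPM, and with all 6 libraries 0.074 became 0.041 as such a mean. Leaving out 1 library gave 0.024 to 0.111 for the summed G2/M level and 0.018 to 0.127 for the G2/M median (-0.005 to 0.106 with all 6, the lowest without WT 22). The list medians then ran over -0.063 to -0.026 (other S phase), -0.019 to 0.033 (other G2 and mitosis), 0.044 to 0.109 (transcription factors), 0.039 to 0.192 (other CDKs), 0.068 to 0.412 (other CDK inhibitors), 0.069 to 0.219 (p53 targets) and -0.127 to -0.024 (quiescence). Among single genes, signs turned only in some that had not passed. Over the 14 alternatives without the library labelled WT 23, log2 fold changes ran over -0.0064 to 0.038 for Ccnd2 and -0.055 to 0.017 for Cdk2. They ran over -0.0058 to 0.041 for Mcm2, -0.007 to 0.073 for Mcm3 and -0.0074 to 0.11 for Mcm6. The ranges were -0.08 to 0.11 for Birc5, -0.042 to 0.13 for Cenpe and -0.51 to 0.093 for Cenpf. For Nusap1 the range was -0.12 to 0.12 and for Tpx2 -0.1 to 0.35. Birc5 was at -0.0034 with upper quartile factors and Nusap1 at 0.0055 with library totals. The cause was not tested. No paired analysis was possible because the genotypes share no replicate numbers. With 2 WT libraries the spread is estimated from few values.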
